A study of Rattus norvegicus with 23 samples.

Results

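The pulmonary artery (PA) was compared with the sinoatrial node (SA) of the rat on 8 single-color Agilent arrays, PA1 to PA4 and SA1 to SA4, out of 23 arrays of 6 regions. The comparison took in each named gene that was well above background on every array of at least one side, and this held for 12301 of the 16544 genes on the array. A second question was which genes that stood out in the node within the heart were higher still in the artery. All tissue was from male Wistar rats, 12 animals aged 8 to 11 weeks in the whole study, whose hearts and attached vessels were perfused on ice during dissection. For SA, tissue from 2 rats was combined into each sample, and the node was isolated separately from the other regions, in about 20 min. The other regions were left atrium (LA), left and right ventricle (LV, RV) and pulmonary vein (PV), with 4 arrays each but 3 of RV. The labels do not say which arrays share a rat, so the p-values measure the spread between these samples only. PA is an extracardiac vessel and SA a piece of atrial tissue around the node, and both are mixtures of cell types. In such bulk RNA, fewer cells of a type and less RNA per cell cannot be told apart.

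The sinoatrial node starts each heartbeat. Its pacemaker myocytes depolarize by themselves through the hyperpolarization-activated HCN channels and calcium cycling, and transcription factors such as Shox2, Tbx3, Tbx18 and Isl1 are known from its development. The pulmonary artery carries blood from the right ventricle to the lung, and its wall is built from elastic sheets, collagen and layers of smooth muscle, whose contraction runs on smooth muscle actin and myosin and is relaxed through nitric oxide and cGMP. The node lies beside its own artery in connective tissue, so it too holds vessel wall and fibrous cells among its myocytes.

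Values are log2(signal + 1), with the deposited signal of the brightest probe of a gene on each array. A difference is PA minus SA with its standard error, and a gene was called at a Benjamini-Hochberg adjusted p below 0.05 in limma. Against this rule 4609 genes were higher in PA, 37.5% of those tested, and 3832 were lower, 31.2%, while 3860 were not called. Over all genes tested the median difference was 0.12. Genes that enter through detection on one side are biased toward a difference, so the genes above background on all 8 arrays were also counted by themselves. Of these 10936 genes, 4121 were higher and 3459 lower, and 1105 differed by 2 or more on the log2 scale, 469 of them upward. Array-wide, 71.6% ± 8.10 of probes (SD, n = 4) were well above background in PA and 65.4% ± 7.43 (SD, n = 4) in SA, which did not pass a two-sided exact permutation test (p = 0.257, the smallest possible being 0.0286). The arrays lay on 3 slides, each with both regions, and 8297 of the 8441 called genes had the same sign within all 3. One minus the Spearman correlation, a distance between arrays, averaged 0.141 between PA and SA, against 0.0135 among PA arrays and 0.0111 among SA arrays, and it was 0.0175 between SA and PV.

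**Figure D1:**
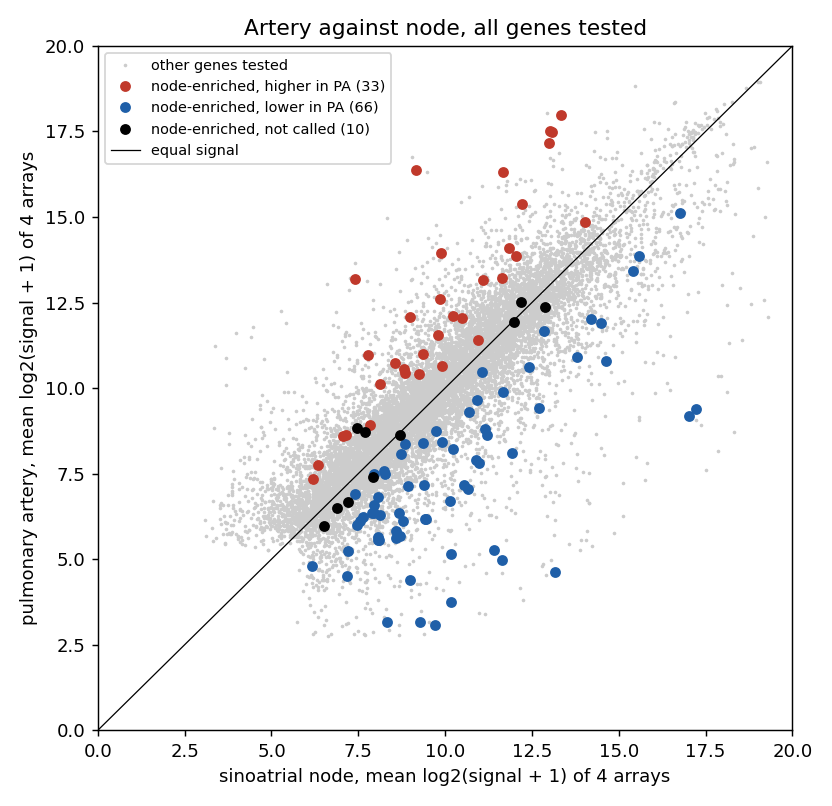
Mean log2(signal + 1) of the 4 PA arrays against that of the 4 SA arrays for every gene tested, with genes enriched in the node colored by their call in PA and a line of equal signal. Of the 109 node-enriched genes, 33 lie above the line as called and 66 below it, and Itga8, at 16.4 in PA and 9.17 in SA, is the farthest above it.

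Genes were called node-enriched if they were above background on all 4 SA arrays and higher in SA than in LA and than in the mean of LV and RV, each by at least 1 on the log2 scale and with an adjusted p below 0.05. There were 109 of them, 0.886% of the genes tested. In the artery 33 of the 109 were higher still, 66 were lower and 10 were not called. The SA arrays that chose these genes are the SA arrays of the comparison with PA, so the 2 contrasts are not independent and the shares were not read against 37.5% and 31.2%. All 33 genes higher still and 48 of the genes lower were above background on all 8 arrays. The arrays of the 2 regions did not overlap for 29 of the 33 and for 57 of the 66. The share without overlap among all genes was not counted, so these counts are not read as particular to node-enriched genes. Of the 99 called genes, 97 kept their sign within each of the 3 slides.

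Genes of the smooth muscle list made up most of the node-enriched genes with the largest rises in the artery. Of 8 node-enriched genes at least 4 higher in PA on the log2 scale, 7 belonged to the smooth muscle list, namely Itga8, Cnn1, Irag1, Actg2, Myh11, Tagln and Tpm2, and the other was Ntrk3. The list was chosen with earlier results of these data known, so this count is a description and not a test. Itga8, the integrin alpha8 chain of smooth muscle and other mesenchymal cells, read 16.35, 16.47, 16.23 and 16.46 in PA1 to PA4 and 8.59, 8.98, 8.91 and 10.22 in SA1 to SA4. SA4 was the highest of the node arrays, yet all 4 were far below the artery. The difference was 7.20 ± 0.36 (adjusted p = 4.7e-13), 147-fold between geometric means. Its place among node-enriched genes was less firm, since it was lost without SA4, without LA4, with quantile normalization and with the slide row as a block.

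Cnn1, calponin, which binds actin in smooth muscle, read 13.34, 13.34, 12.83 and 13.29 in PA and 7.08, 6.96, 7.22 and 8.34 in SA, a difference of 5.80 ± 0.36. Actg2, the gamma smooth muscle actin, read 17.93, 17.97, 17.91 and 18.16 in PA and 13.09, 12.95, 12.95 and 14.41 in SA, a difference of 4.64 ± 0.39. Tagln, transgelin, another actin-binding protein of smooth muscle, read 17.54, 17.55, 17.31 and 17.52 in PA and 12.92, 12.93, 12.86 and 13.60 in SA, a difference of 4.40 ± 0.29. For all 3 genes SA4 was the highest node array and no node array reached the artery. Irag1, which links cGMP signalling to calcium release, was 4.66 ± 0.17 higher, Myh11, the smooth muscle myosin heavy chain, 4.49 ± 0.22 higher, and the tropomyosin Tpm2 4.16 ± 0.26 higher. Ntrk3, the receptor for neurotrophin-3, was 4.05 ± 0.23 higher, at 13.51, 14.07, 14.17 and 14.01 in PA and 9.58, 9.86, 9.86 and 10.26 in SA. Ntrk3 left the node-enriched set under 7 of 36 alternative settings, one of them the omission of SA4.

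**Figure D2:**
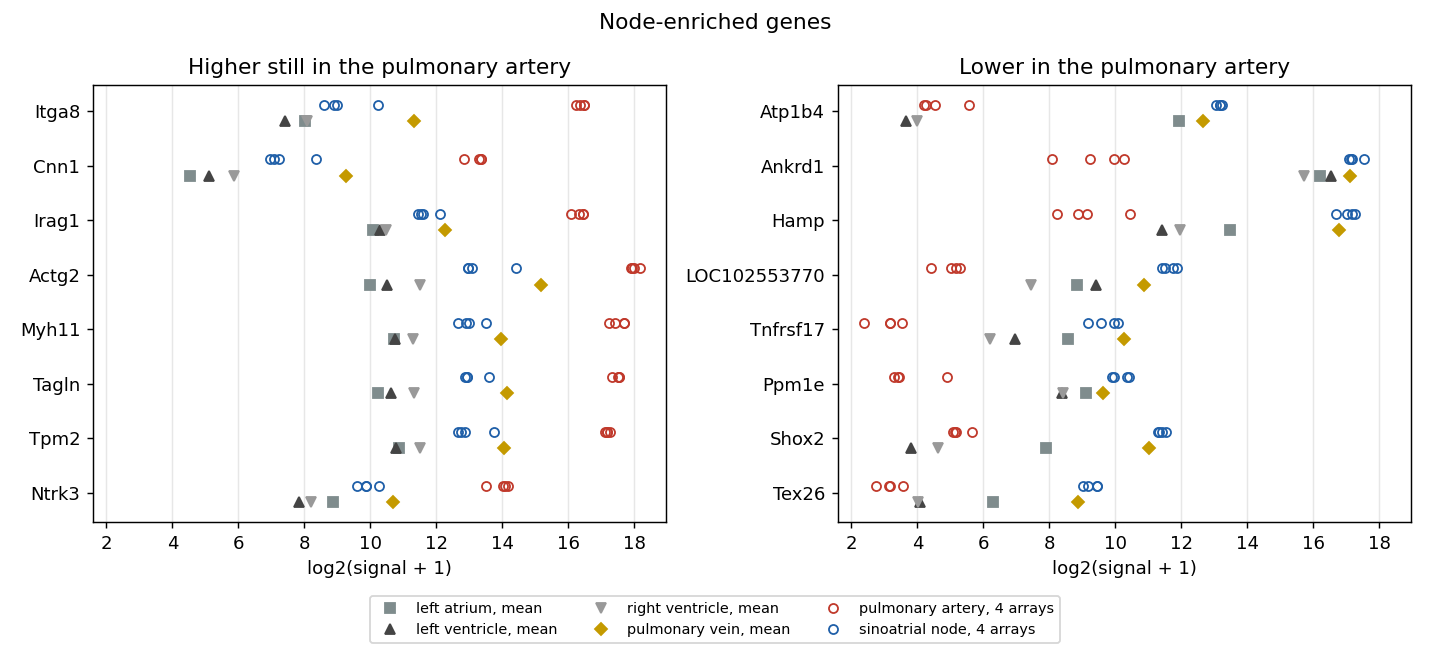
Log2(signal + 1) of the 8 node-enriched genes with the largest difference in each direction, with open circles for the single PA and SA arrays and filled marks for the means of the other regions. In the left panel the PA circles lie above every other region, with Itga8 at 16.23 to 16.47 and Ntrk3 at 13.51 to 14.17, while in the right panel they lie below SA and PV for each gene.

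The homeobox genes Hoxa2, Hoxb3 and Prrx1 were also among the genes higher still in the artery. Hoxa2, a homeobox gene of the hindbrain and pharyngeal region that the study plots for the rat node, read 12.05, 11.92, 12.20 and 12.10 in PA and 9.03, 8.93, 8.77 and 9.19 in SA. The difference of 3.08 ± 0.29 (adjusted p = 9.4e-09) was 8.48-fold, and the means in the other regions were 8.67 in PV, 7.16 in RV, 6.65 in LA and 6.37 in LV. Hoxb3, its relative of the HoxB cluster, read 10.67, 10.79, 11.28 and 11.13 in PA and 7.71, 7.78, 7.44 and 8.16 in SA, a difference of 3.20 ± 0.30. For both genes every artery array was above every node array, and the artery was the highest of the 6 regions by its mean. Prrx1, a homeobox factor of connective tissue progenitors, was 1.84 ± 0.18 higher. Of the Hox, Meis and Pbx genes, 16 were tested, of which 8 (50%) were higher in PA and 3 (18.8%) lower, against 37.5% and 31.2% of all genes, with a median difference of 0.31. The largest rises after Hoxb3 and Hoxa2 were those of Hoxb4, at 2.53 ± 0.16, Meis3, at 2.03 ± 0.15, and Meis1, at 1.99 ± 0.11. Hoxb7 was lower, by 0.84 ± 0.26.

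The other genes higher still were of several kinds, and 17 of the 33 were in none of the gene lists. Artn, the neurotrophic factor artemin, was 2.18 ± 0.22 higher, Gdf10, a member of the BMP family, 1.98 ± 0.32 higher, and the collagen-associated Cthrc1 1.58 ± 0.30 higher. Npy, the sympathetic peptide neuropeptide Y, was 1.75 ± 0.55 higher, at 12.67, 11.76, 11.24 and 10.52 in PA and 10.47, 9.88, 9.20 and 9.64 in SA, so that the lowest artery array barely passed the highest node array. Npy was also high in PV, with a mean of 12.17. Scd, the stearoyl-CoA desaturase, was 2.09 ± 0.55 higher, Thrsp 1.65 ± 0.39 and Fasn, the fatty acid synthase, 1.59 ± 0.35. Aldoc, Plac9, Zfp365, Rbp4, Smpd3, Sdc1, Pfkfb1, Acvr1c and Slc36a2 were higher by 1.41 to 3.19 with no overlap of the arrays. Tmem79 and Trarg1 were higher by 1.16 and 0.75 with none, and Grifin, Adrb3, S1pr3 and Tspan11 by 0.45 to 1.16 with overlapping arrays. The calls of Acvr1c and Tmem79 as node-enriched were the least firm of the 33, holding under 12 and 14 of the 36 settings.

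Adrb3 and Slc36a2 of the fat list were among the genes higher still, while the list as a whole went both ways. Of 23 tested genes of brown and white fat, 9 were higher in PA and 9 lower, 39.1% each against 37.5% and 31.2% of all genes, with a median difference of 0.39. Without PA4 the count higher was 5. The summed signal of the list, which includes the muscle-expressed Cox8b, was 47133 to 67788 in PA and 332585 to 387855 in SA. Among markers of fat cells, Lep, leptin, was 2.83 higher with dim readings at the floor, since 1 of 4 SA arrays was above background, and Adipoq, adiponectin, was 1.61 ± 0.63 higher, at 11.63, 10.66, 11.50 and 11.37 in PA and 9.66, 10.26, 9.01 and 9.79 in SA. Ucp1, the uncoupling protein of brown fat, was node-enriched and was not called, at 11.14, 12.34, 13.23 and 13.32 in PA and 11.49, 13.60, 11.15 and 12.46 in SA, with both regions spanning more than 2 on the log2 scale. Cidea was lower, by 1.60 ± 0.14, and Fabp4 by 1.74 ± 0.21. Pck1, Gys2, Agt, Mt2A, Gpat2, Olr59, Cd52, Cpeb1 and LOC102555465 were the other node-enriched genes not called, with differences from -0.54 to 1.37.

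Most node-enriched genes fell in the artery, among them Shox2 and Rims2 of the pacemaker and node list. Shox2, the homeobox factor of the node, read 11.34, 11.55, 11.30 and 11.43 in SA and 5.09, 5.15, 5.67 and 5.16 in PA, where 2 of 4 arrays were above background. It was lower in PA by 6.14 ± 0.28 (adjusted p = 1.1e-13), or 6.04 with dim readings at the background floor, and the region means were 11.40 in SA, 11.03 in PV, 7.90 in LA, 5.27 in PA, 4.63 in RV and 3.81 in LV. Rims2, which tethers vesicles at calcium channels, was lower by 1.61 ± 0.29. The arrays of the regions did not overlap for either gene.

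The node-enriched genes with the largest falls, Atp1b4, Ankrd1 and Hamp, had means in PV of 12.6, 17.1 and 16.8. Atp1b4, an X-linked relative of the sodium pump beta subunits, read 13.22, 13.05, 13.16 and 13.18 in SA and 5.55, 4.19, 4.54 and 4.26 in PA, with 2 PA arrays above background and a difference of -7.95 with dim readings at the floor, the lowest signal above background of each array. Hamp, the iron hormone hepcidin, read 17.27, 16.68, 17.01 and 17.17 in SA and 10.45, 8.88, 9.15 and 8.24 in PA, a difference of -7.85 ± 0.33. Ankrd1, the cardiac ankyrin repeat protein, was lower by 7.85 ± 0.32. Hopx, a homeodomain protein of cardiac and conduction tissue, was lower by 3.85 ± 0.16. Tnfrsf17 and Tex26 were not well above background on any PA array, and Tnfrsf17, the B-cell maturation antigen, was at least 29.9-fold lower there. Ppm1e and RGD1559536 passed background on 1 PA array, LOC102553770 on 2 and Panx1, pannexin 1, on 3. Nerve-related Gap43 was lower by 1.26 ± 0.21 and the mast cell chymase Cma1 by 2.31 ± 0.31. Of the 66 genes, 23 had a PA mean below the means of LA, LV and RV, and 43 did not.

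Of the node-enriched genes lower in PA, 7 were globins, the hemoglobin chains of red cells, lower by 1.63 to 2.34 with overlapping arrays. Hba-a1 read 16.89, 15.01, 14.04 and 14.59 in PA and 16.86, 16.15, 16.93 and 17.10 in SA, so that PA1 lay within the node range, and without PA1 the difference moved from -1.63 to -2.21, and without PA3 to -1.26. Globin genes are near-identical copies, and probes may read more than one of them.

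The artery held the genes of the vessel wall at far higher levels than the node as a whole. Of 23 tested smooth muscle contraction genes, 22 (95.7%) were higher in PA and none lower, with a median of 4.13. Over all genes the shares were 37.5% and 31.2% and the median 0.12. Of the 18 elastic fiber genes tested, 18 were higher (median 2.66), as were 26 of 26 proteoglycan and matricellular genes (median 2.58). Of 20 collagens, 12 (60%) were higher and 5 (25%) lower (median 1.33). These lists were chosen with earlier results of these data known, so the counts are descriptions. Not called in the smooth muscle list was Rock2, a kinase that promotes contraction, at -0.21 ± 0.12.

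Kcnmb1, the beta1 subunit that tunes the large calcium-activated potassium channel of smooth muscle, was 4.87 ± 0.21 higher, and Pde5a, the cGMP phosphodiesterase that is a drug target in pulmonary hypertension, 4.91 ± 0.19. Eln, elastin, read 17.71, 18.04, 18.25 and 18.16 in PA and 12.85, 13.12, 12.29 and 13.48 in SA, a difference of 5.11 ± 0.36 or 34.5-fold. Ltbp2 and Fbln5, which take part in elastic fiber assembly, were higher by 5.94 ± 0.45 and 4.67 ± 0.23. Acta2, the alpha smooth muscle actin, read 16.05, 16.11, 15.87 and 16.20 in PA and 11.58, 11.77, 11.74 and 12.01 in SA, a difference of 4.28 ± 0.13. It was not node-enriched.

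Smooth muscle genes are known to be driven by serum response factor through the CArG box, so the 250 bases before the RefSeq start (GRCr8) were searched for it on both strands. A window was held for 19 of the 25 listed symbols, not among them Tagln, Myh11, Lmod1, Myl9 and Myocd, nor Mrvi1, an older symbol of Irag1, which has one, and 0 of the 19 held the full motif, which was present in 1.5% of all 33469 windows. With 19 genes and a share of 1.5%, finding none says little about the list. Sequence outside the 250 bases was not searched. A near match, searched for after the full motif was not found, with 1 of the 6 central A or T bases replaced, was present in 2 of the 19, Acta2 and Gucy1b1, and in 8.08% of all windows. The Acta2 window, chr1:241172504-241172753 on the minus strand, has near matches starting 134 and 84 bases before the start, the Gucy1b1 window, chr2:169696988-169697237 on the minus strand, has one starting 218 bases before it, and that of Itga8, chr17:80410634-80410883 on the minus strand, has none. They are shown 5′ to 3′ for the contractile actin, the nitric oxide receptor subunit and the smooth muscle list gene with the largest rise, with near matches in capitals. A match describes sequence only, and binding was not tested.
Acta2: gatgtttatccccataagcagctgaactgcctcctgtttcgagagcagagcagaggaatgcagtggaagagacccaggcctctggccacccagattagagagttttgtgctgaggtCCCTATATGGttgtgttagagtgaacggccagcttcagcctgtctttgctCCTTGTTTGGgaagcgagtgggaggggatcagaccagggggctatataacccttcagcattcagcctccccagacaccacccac
Gucy1b1: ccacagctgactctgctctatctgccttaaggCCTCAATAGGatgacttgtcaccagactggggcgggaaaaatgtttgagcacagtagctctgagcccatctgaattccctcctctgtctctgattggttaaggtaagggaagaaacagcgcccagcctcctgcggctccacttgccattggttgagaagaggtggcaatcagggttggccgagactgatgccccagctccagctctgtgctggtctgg
Itga8: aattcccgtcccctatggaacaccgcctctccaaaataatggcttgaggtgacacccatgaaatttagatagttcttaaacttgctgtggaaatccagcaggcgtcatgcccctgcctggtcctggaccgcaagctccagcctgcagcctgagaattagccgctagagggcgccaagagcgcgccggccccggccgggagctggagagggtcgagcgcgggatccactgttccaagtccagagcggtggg

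**Figure D3:**
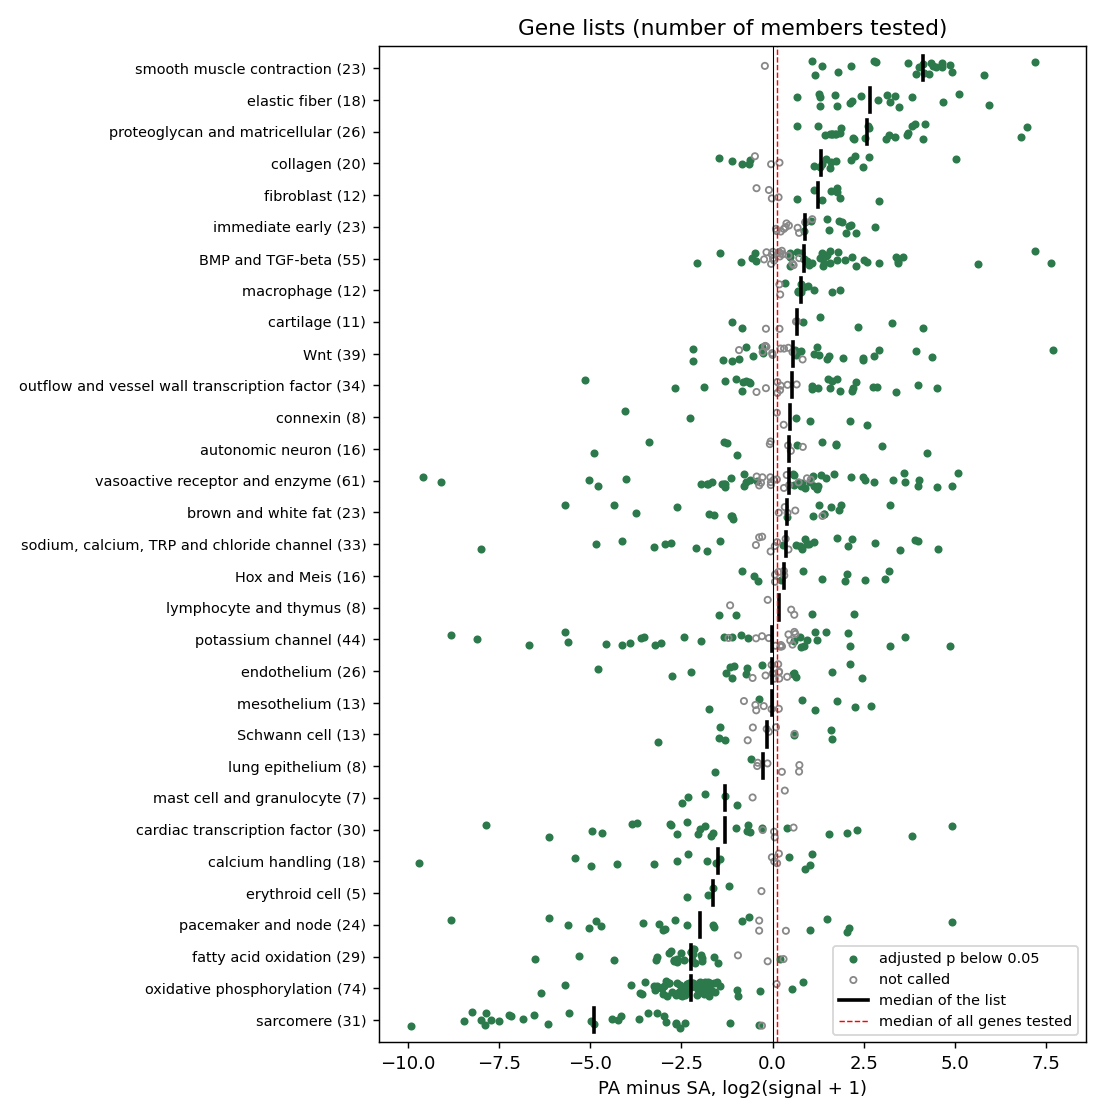
PA minus SA in log2(signal + 1) for every tested member of 31 gene lists, ordered by the list median (black bar), with called genes filled and the number tested in parentheses. Smooth muscle, elastic fiber and proteoglycan lists lie to the right with medians of 4.13, 2.66 and 2.58, and oxidative phosphorylation and sarcomere lists to the left with -2.24 and -4.90.

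Among genes above background on all 8 arrays, Frzb rose most. Frzb, a secreted inhibitor of Wnt, read 16.80, 16.91, 16.65 and 16.64 in PA and 8.95, 8.98, 8.89 and 9.37 in SA, a difference of 7.70 ± 0.24 (adjusted p = 4.5e-16) or 208-fold. Ccn3, a matricellular protein, was 6.82 ± 0.25 higher, the sterol transporter Abcg4 6.65 ± 0.24, Tnfrsf11b, osteoprotegerin, 6.46 ± 0.24, and Igfbp2 6.25 ± 0.34. Nupr1, Fibin and Mmp16 were higher by 5.37 to 5.45. None of these was node-enriched. There were 52 genes above background on every PA array and on no SA array, a choice that itself favors a higher call. Among them Dmp1, a protein of mineralized matrix, was at least 80.2-fold higher in PA, B3gat2, a glucuronyltransferase, at least 69.4-fold, and Bmp3 at least 52.1-fold. Lrrtm3, Plppr4 and Emb were at least 30.4, 13.1 and 10.9-fold higher.

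Of 55 BMP and TGF-beta genes 33 (60%) were higher and 6 (10.9%) lower, against 37.5% and 31.2% of all genes, with a median of 0.85. Beside Bmp3, the type I receptor Bmpr1b read 11.18, 11.46, 12.04 and 11.72 in PA and 3.49, 4.38, 4.54 and 3.47 in SA, where 1 of 4 arrays was above background. With dim readings set to the background floor the difference was 6.36. Of the Wnt genes, 18 of 39 (46.2%) were higher and 9 (23.1%) lower, not far from the shares of all genes. The forkhead factors Foxc2 and Foxc1 of the outflow tract and vessels were higher by 4.52 ± 0.20 and 3.99 ± 0.17, and Pax9, a pharyngeal factor above background on no SA array, was at least 2.96-fold higher.

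Genes plotted by the study as node factors went both ways. Isl1, a marker of the second heart field and the developing node, read 8.58, 8.74, 8.89 and 8.59 in PA and 3.62, 4.49, 3.46 and 3.56 in SA, with 1 of 4 SA arrays above background. With dim readings at the floor PA was 3.43 higher, and the means of the other regions lay between 2.85 and 4.29. Tbx18, a T-box factor of the node head and of mural cells, read 11.81, 12.33, 12.45 and 12.35 in PA and 10.40, 9.74, 10.17 and 10.43 in SA, a difference of 2.05 ± 0.17. The 2 genes were thus higher in the artery with no overlap.

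Tbx3, which represses the working myocardial program, was lower by 1.63 ± 0.22, at 9.34, 8.76, 9.09 and 9.20 in PA and 10.64, 10.65, 10.75 and 10.87 in SA. Tbx5 was lower by 2.18 with dim readings at the floor, 3 of 4 PA arrays being above background. Hcn4, the main pacemaker channel, read 6.96, 6.92, 6.47 and 6.83 in PA and 10.58, 10.27, 10.22 and 10.27 in SA, a difference of -3.54 ± 0.30 (adjusted p = 1.9e-09), and SA was the highest region. Over the 24 tested pacemaker and node genes, 5 (20.8%) were higher in PA and 16 (66.7%) lower, against 37.5% and 31.2% of all genes, with a median of -1.99. The acetylcholine-activated channel subunits Kcnj5 and Kcnj3 were lower by 8.39, with dim readings at the floor on the 2 PA arrays not above background, and by 5.61 ± 0.20, and the muscarinic receptor Chrm2 by 5.05 ± 0.14.

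**Figure D4:**
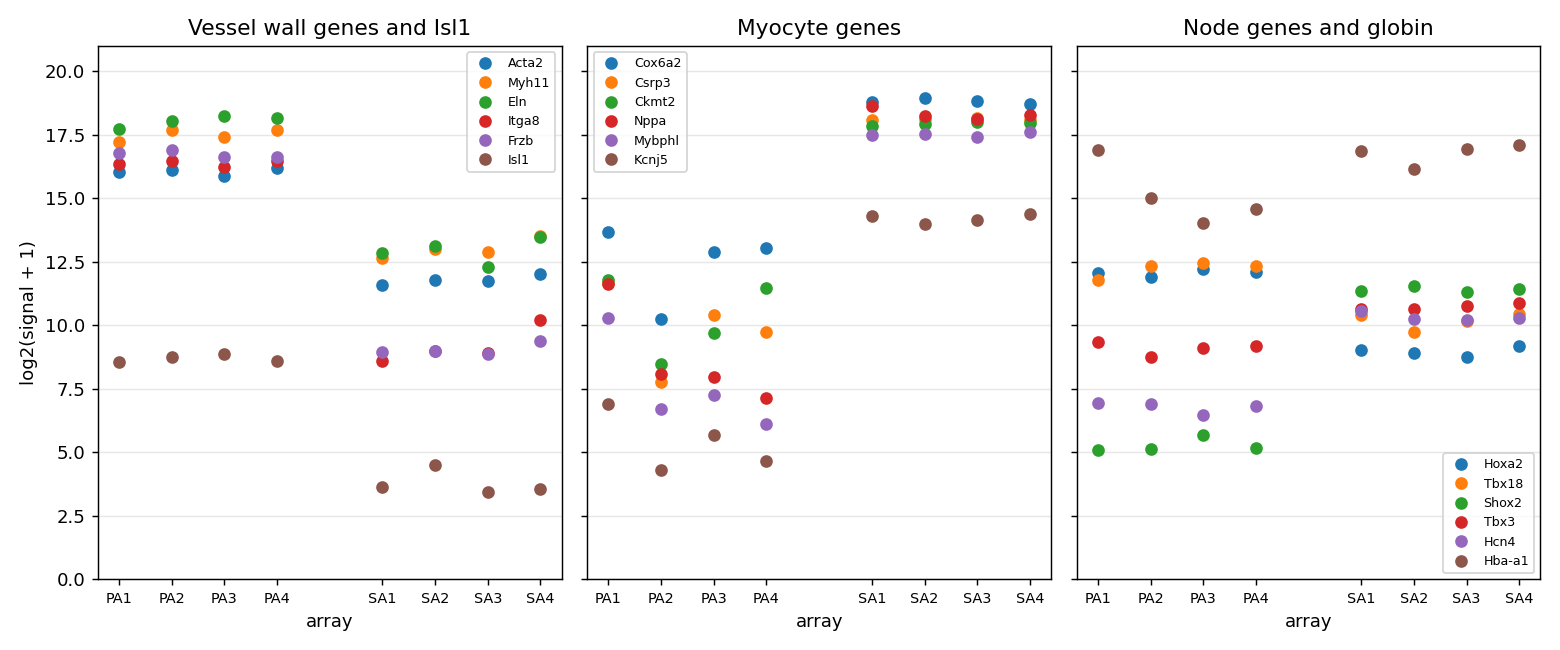
Log2(signal + 1) of 18 genes on each PA and SA array. PA and SA do not overlap for the vessel wall genes and Isl1, though Itga8 in SA4 (10.22) and Isl1 in SA2 (4.49) stand above the other SA arrays, and myocyte genes spread over the artery arrays (Nppa from 7.16 to 11.64) but not over the node arrays, and Hba-a1 in PA1 is as high as in the node.

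Genes of cardiac muscle and its mitochondria were low in the artery. Of 31 tested sarcomere genes 30 (96.8%, against 31.2% of all genes) were lower and none higher, with a median of -4.90. Of 74 oxidative phosphorylation genes 71 (95.9%) were lower and 2 higher, or 1 without PA3, with a median of -2.24. Of 29 fatty acid oxidation genes 25 (86.2%) were lower and 1 higher, or 0 without PA1, PA4, SA2, SA3 or SA4. Mybphl, an atrial myosin-binding protein, read 10.28, 6.72, 7.26 and 6.13 in PA and 17.51, 17.52, 17.43 and 17.60 in SA, and its difference of -9.92 ± 0.62 was the largest fall among genes above background on all 8 arrays. Nppa, atrial natriuretic peptide, read 11.64, 8.09, 7.97 and 7.16 in PA and 18.62, 18.23, 18.11 and 18.27 in SA, a difference of -9.59 ± 0.67. Sln, sarcolipin, which restrains the calcium pump, was lower by 9.70 ± 0.63 and the iron regulator Hjv by 7.51 ± 0.38. Csrp3, Pgam2, Myom2 and Ckmt2, of the Z-disc, glycolysis, M-band and mitochondrial creatine kinase of muscle, were lower by 7.58 to 8.24. Myh8 was lower by 8.44 ± 0.28, but myosin heavy chain genes are close relatives and its probe may read several. Styxl2, Aldh1b1, LOC102554507, Cavin4 and Fsd2 were above background on no PA array and at least 47.8, 41.7, 30.7, 26.6 and 24.2-fold lower.

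Myocyte transcripts were nevertheless present in all artery samples and differed between them. The summed signal of the sarcomere list was 394071 to 535935 in PA and 5777872 to 6193893 in SA, and 26 of its 31 genes were above background on every PA array. The list includes Tpm1, Des, Cryab and Pdlim5, which are not confined to cardiac muscle. The sum and this count therefore do not measure myocyte RNA alone. The list median was 11.45, 9.34, 11.22 and 10.72 in PA1 to PA4 and 15.98 to 16.12 in SA. The atrial genes Mybphl, Nppa and Sln were highest in PA1 and lowest in PA4. Csrp3 and Cox6a2, genes of striated muscle, were also highest in PA1 but lowest in PA2, with Cox6a2 at 13.67, 10.23, 12.90 and 13.04. Without PA1 the difference of Nppa was -10.57, and with any one PA array left out 30 of 31 sarcomere genes were called lower. The part of this myocyte RNA in other differences was not tested.

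Of 61 tested vasoactive receptors and enzymes, 27 (44.3%) were higher in PA and 19 (31.1%) lower, shares near the 37.5% and 31.2% of all genes, with a median of 0.45. Ptgis, the prostacyclin synthase, was higher by 4.52 ± 0.17 (14.42, 14.28, 13.92 and 14.36 in PA against 9.80, 9.60, 9.49 and 10.01 in SA), and the angiotensin receptor Agtr1b, above background on 2 SA arrays, by 4.27 with dim readings at the floor. The adrenergic receptor Adra1d was higher by 4.03 ± 0.16 and the thromboxane receptor Tbxa2r by 3.63 ± 0.21. Nppb and Npr3, a natriuretic peptide and its clearance receptor, were lower by 8.80 and 4.78 with dim readings at the floor, with 2 and 3 PA arrays above background. Of 44 potassium channels 13 (29.5%) were higher and 18 (40.9%) lower, with a median of -0.01. Kcnj11 and Abcc8, which together form ATP-sensitive channels, were lower by 6.69 ± 0.16 and 4.56 ± 0.11, as was the stretch-sensitive Kcnk2 by 7.78 with dim readings at the floor and 2 PA arrays above background. Among 8 connexins, Gja5 (connexin 40) was higher by 2.13 ± 0.19 and Gjc1 (connexin 45, the form of the node) by 1.04 ± 0.10, while Gja1 (connexin 43) was lower by 2.27 ± 0.16 and Gja3 by 4.05 ± 0.19.

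Markers of other cell types were counted in the same way, and are to be set against 37.5% higher and 31.2% lower among all genes. Of 26 endothelial genes 6 (23.1%) were higher and 10 (38.5%) lower (median -0.01), and Pecam1 and Vwf were not called, at 0.17 ± 0.19 and -0.19 ± 0.16. Fibroblast genes were higher for 8 of 12 (66.7%) and lower for none, macrophage genes for 10 of 12 (83.3%) and none. Mesothelial genes were higher for 5 of 13 (38.5%) and lower for 2 (15.4%), or 4 without PA3. Lung epithelial genes were higher for 0 of 8 and lower for 2, with 1 higher without SA3. The count lower was 4 with quantile normalization or with the slide as a block. With only the PA and SA arrays 2 were higher and 3 lower. Epcam, Scgb3a2 and Slc34a2 were above background on no array of either region. Mast cell and granulocyte genes were lower for 5 of 7 (71.4%). Of 8 lymphocyte genes 2 were higher and 2 lower (25% each), and of 11 cartilage genes 5 (45.5%) and 2 (18.2%), with 3 higher without SA3 and 1 lower without PA3, PA4, SA3 or SA4.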

How the data were processed

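Total RNA of each sample was labelled with Cy3 and hybridized to 1 rat Agilent array. Agilent Feature Extraction 11.0.1.1 (submitters' processing notes) gave a background-subtracted intensity per spot and, per the file headers, a flag for spots well above background. The authors deposited intensity values that are these signals times 1 factor per array (0.881 to 1.52), which sets the 90th percentile equal, and these were analysed. Probes were named through RefSeq accessions (21047 probes, 16544 genes, and 24393 accession-named probes had no symbol), and 156 probes with missing values were left out.

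The brightest probe of each gene on each array was taken, log2(signal + 1) was fitted to all 23 arrays by region with limma 3.58.1 in R 4.3.3 (lmFit, eBayes), and p-values were adjusted over 12301 genes. A bound sets dim readings to the lowest signal above background of their array. Tested on simulated data for PA against SA over 12301 genes, the fit recovered 82% of genes changed by 1 on the log2 scale. Only a small part of the genes was changed there, and noise was independent between arrays. The 82% is therefore not the recovery in these data. Alternatives changed the scaling, background correction, pseudocount, filter, probe, blocks and arrays. Figures were drawn with matplotlib 3.10.9.

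Named were the 12 largest differences in each direction overall and among node-enriched genes, the 6 largest bounds, the 3 largest per list and the 7 genes plotted by the study for the rat. Abcc8, Acta2, Adipoq, Adra1d, Cidea, Fabp4, Gucy1b1, Meis1, Meis3, Pecam1, Rock2, Tbxa2r, Vwf, and the node-enriched genes beyond the 12 in each direction or the lists, were named after their values were seen. A few of these genes are not reported here. The members and lists were chosen with earlier results of these data known. The number of arrays limits the precision.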

Additional observations from a re-analysis of the deposited data

Results flagged for a closer look

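Among 60 genes checked in 120 groups of 4 arrays, 12 groups held 1 array far from the other 3, while chance marks about 1 in 20 groups. In PA these were Cnn1 in PA3 (12.83), Hjv in PA1 (8.586), Lrrtm3 in PA1 (9.618), Tagln in PA3 (17.31), Ppm1e in PA1 (4.912) and Shox2 in PA3 (5.67). In SA they were B3gat2 in SA2 (2.655), Lrrtm3 in SA2 (4.062), Actg2 in SA4 (14.41), Tagln in SA4 (13.6), Isl1 in SA2 (4.485) and Hcn4 in SA1 (10.58), all on the log2(signal + 1) scale. The values of B3gat2, Lrrtm3 and Isl1 in SA and of Ppm1e and Shox2 in PA came from probes that were not above background on every array of that region.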

How the results depend on the processing

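No call of 178 genes checked one by one changed direction, and of their 3675 values 34 no longer passed the threshold, in Col9a2, Gdf6, Ndufa10, Acaa1a, Cldn15 and Mal. Without the minimum difference of 1, adjusted p alone gave 384 node-enriched genes, 126 higher still in PA and 222 lower. Leaving out 1 array at a time gave 8145 to 8466 called genes, 4374 to 4628 higher and 3630 to 3866 lower, 101 to 116 node-enriched genes, 27 to 35 higher still and 61 to 73 lower, and a difference in probes above background of 3.71 to 9.8 percentage points. The omission of arrays other than PA and SA, and the share of probes without single arrays, were added after seeing the data. Of the 33 genes higher still, 20 kept both calls under all 36 settings, and of the 66 lower, 26 did. Among genes named above, Adrb3 kept its place among node-enriched genes in 36 settings and both calls in 32, Trarg1 in 32 and 25, Grifin in 35 and 34, and Tmem79 in 14 and 13. Normexp background correction gave 81 node-enriched genes, 79 of them in the main set, 27 higher still and 48 lower.

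The replicate numbers of PA and SA did not pair the arrays: the correlations of deviations between arrays of equal number were 0.0078, -0.026, -0.0058 and 0.066, and the highest of all were 0.222 for PA2 with SA3 and 0.112 for PA4 with SA1, pairs on the same slide and row. With the slide as a block 8542 genes were called, and 110 were node-enriched, 34 of them higher still and 68 lower. With a replicate block 8368 genes were called (4560 higher and 3808 lower), 106 were node-enriched, 32 were higher still and 64 lower, and the difference of Acaa1a, 0.20, was no longer past the threshold. PA2, PA4, SA1, SA3 and SA4 sat on the second row of their slides, where 60.1% to 69.4% of probes were above background against 76.1% to 79.1% for PA1, PA3 and SA2, so low signals limit those arrays most.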

Other observations

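Of 16 autonomic neuron genes tested, Npy and Gap43 among them, 6 were higher in PA and 5 lower, the same shares as the 37.5% and 31.2% of all genes. Stmn2, a tubulin-binding protein of neurons, read 9.22, 10.13, 9.65 and 10.54 in PA and 5.15, 6.13, 6.15 and 5.15 in SA, where 2 of 4 arrays were above background, and it was high in PV too, with a mean of 9.43. Dbh, the enzyme of noradrenaline synthesis, was lower by 3.26 with dim readings at the floor and 2 PA arrays above background, and its PA readings of 4.01, 7.82, 5.39 and 5.26 spread more than those of SA (8.86 to 9.11). Ddc, the decarboxylase of catecholamine synthesis, was lower by 4.91 ± 0.17. Of 13 Schwann cell genes 3 (23.1%) were higher and 4 (30.8%) lower, and the myelin gene Mbp was lower by 3.13 ± 0.54 with PA readings of 8.25, 10.23, 10.53 and 7.02.

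Immediate early genes, which respond within minutes to stretch and handling, were higher in PA for 12 of 23 (52.2%, against 37.5% of all genes) and lower for none, with a median of 0.90. Fos read 10.11, 8.98, 10.73 and 11.78 in PA and 8.81, 7.30, 7.87 and 8.44 in SA, a difference of 2.29 ± 0.75 (adjusted p = 0.010). SA was isolated separately from the other regions, and the part of dissection in these differences was not tested.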
